A study of Homo sapiens with 19 samples.

Results

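Interferon-stimulated genes are genes whose transcripts accumulate when a cell answers interferon, and 47 of them were followed here across MYCN states and times after doxorubicin. They were selected by gene symbol, and all 47 symbols had a row among the 23367 genes of the deposited count table. The cells were SHEP TET21N, an established human neuroblastoma line that carries a MYCN transgene under doxycycline control. The MYCN protein is a transcription factor related to MYC. Cultures without doxycycline are called MYCN-high, and cultures with doxycycline are called MYCN-low. In each state RNA was sampled before treatment, at the end of 72 h of doxorubicin (0.1 µg/ml), and on days 3, 8 and 14 after the drug was washed out. Doxorubicin poisons topoisomerase II and breaks DNA. Biological duplicates, lettered B and C, were sequenced in every group except MYCN-low at day 14, which had replicate B alone. All 19 libraries thus came from a single engineered line. The antibiotic doxycycline and the MYCN state cannot be told apart, and neither can doxorubicin and time in culture, because each state had 1 untreated group.

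As background, interferons bind receptors on the cell surface whose associated JAK kinases phosphorylate transcription factors of the STAT family, STAT2 among them. A complex that holds STAT2 and IRF9 enters the nucleus and binds the interferon-stimulated response element, while the gamma-activated sequence is bound without IRF9. The induced proteins sense foreign nucleic acid, degrade or sequester viral RNA, attach the ubiquitin-like protein ISG15 to other proteins, and load peptides for display to T cells. Many of these genes are also known to be induced in cells with damaged DNA, and TRIM22 is a known p53 target.

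Library totals ran from 16547663 to 27664604 counts. Levels are given as CPM, counts scaled to library sizes normalised by the TMM method, and differences as log2 fold changes from edgeR's quasi-likelihood test with Benjamini-Hochberg adjustment over 14793 genes. The value after ± is an approximate standard error (SE) derived from the test statistic. A gene was called when its adjusted p was below 0.05. MYCN stood at 594 to 1416 CPM in MYCN-high libraries and at 13.5 to 30.7 CPM in MYCN-low libraries, as labelled. Among defining leukocyte genes, MS4A1 and LILRA4 had no count in any library, CD3E had none in 18 of 19, and PTPRC reached 2.04 CPM. The summed leukocyte list (5.24 to 79.7 CPM) was almost entirely CD68, a lysosomal gene. That sum was 23.0 to 79.7 CPM in MYCN-low libraries and 50.8 and 54.6 CPM in MYCN-high libraries at 72 h, against 5.24 to 27.2 CPM in the other MYCN-high libraries, so it moved with both MYCN state and drug. Its part in the results was not tested. The mesenchymal marker VIM was high throughout (748 to 2655 CPM), whereas the sympathetic-lineage gene PHOX2A had no count in any library. In bulk RNA, fewer cells expressing a gene and less RNA per cell cannot be told apart.

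Most of the 47 genes were expressed well enough to judge, and 4 were not. OAS2 (32 counts over all libraries) and CMPK2 (61 counts) failed the low-count filter and were not tested. IFI27 (73 counts) and RSAD2 (24 counts), which encodes viperin, passed the filter but stayed under 1 CPM in every group, so no direction is read from them. A further 5 genes rested on few reads: the highest group mean was 1.06 CPM for ISG20, 1.17 CPM for HERC5, 1.27 CPM for MX2, 1.39 CPM for IRF7 and 2.44 CPM for MX1. MX1 nevertheless had 12 to 76 counts in every library, and OAS1 had 4 to 52. The interferon genes themselves were almost silent. Of 21 interferon genes in the table, 12, among them IFNB1 and IFNG, had no count in any library, which allows a level of up to 0.0076 CPM over the pooled libraries by counting error alone. Another 8 had 1 to 7 counts in all. IFNE was the exception, with 326 counts and group means of 0.276 to 2.14 CPM, and it was not called in any comparison.

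The interferon-stimulated response element was present in many of these promoters. RefSeq promoters (GRCh38.p14, 300 bases each, 250 before and 50 from the gene start) matched 38 of the 47 genes by symbol or synonym; IFIT2, USP18, OAS2, OASL, MX2, GBP2, IRF7, TRIM22 and PML had no entry. The response element, searched on both strands as GAAA, NN and GAAA in a row with overlapping matches counted, occurred in 21 of the 38 promoters (55.3%) and in 1255 of all 35116 RefSeq promoters of that length (3.57%). The gamma-activated sequence, searched as TTC, NNN and GAA in a row, which reads the same on both strands, occurred in 8 of 38 (21.1%) and in 7.66% of all. Both motifs occurred in 4 promoters, and in 2 of them a pair of matches shared bases. Windows around the matches are printed 5′ to 3′ on the strand of the gene, with the motif in capitals. Matches that begin with TTTC are the response element read on the opposite strand. The first 4 genes were called higher after 72 h of doxorubicin in both MYCN states. At that time the next 3 were called in 1 state or in opposite directions. Of the next 2, GBP1 was called lower in both states and OAS3 in MYCN-low cells alone. For ISG15, the founding member of the class, no drug response was called.
IFI6 (chr1:27672329-27672358, minus strand): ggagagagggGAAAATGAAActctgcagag
IFIT3 (chr10:89327865-89327894, plus strand): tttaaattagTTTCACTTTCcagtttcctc
TAP1 (chr6:32853819-32853848, minus strand): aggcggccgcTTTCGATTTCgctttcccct
PARP14 (chr3:122680800-122680829, plus strand): tccaggaaacGAAAGCGAAAgagtcaaagt
IFIT5 (chr10:89414539-89414568, plus strand): ttacgtttagTTTCGATTTCttaagtttca
IFIH1 (chr2:162318686-162318715, minus strand): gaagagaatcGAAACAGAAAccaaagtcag
SAMD9 (chr7:93118096-93118125, minus strand): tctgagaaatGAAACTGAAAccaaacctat
GBP1 (chr1:89065316-89065345, minus strand): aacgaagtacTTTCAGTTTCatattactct
OAS3 (chr12:112938452-112938481, plus strand): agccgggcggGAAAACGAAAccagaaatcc
ISG15 (chr1:1013380-1013409, plus strand): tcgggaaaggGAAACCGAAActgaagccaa
The promoters of STAT2, IRF1 and IRF9, which encode transcription factors of the response, held no match to the response element as searched. That of STAT2 held none to the gamma-activated sequence either. Those of IRF1 and IRF9 each held 1 match to it, in capitals here.
IRF1 (chr5:132490879-132490907, minus strand): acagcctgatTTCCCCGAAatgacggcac
IRF9 (chr14:24161192-24161220, plus strand): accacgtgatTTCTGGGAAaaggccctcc
A match is a stretch of letters, and occupancy by a factor was not measured.

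**Figure D1:**
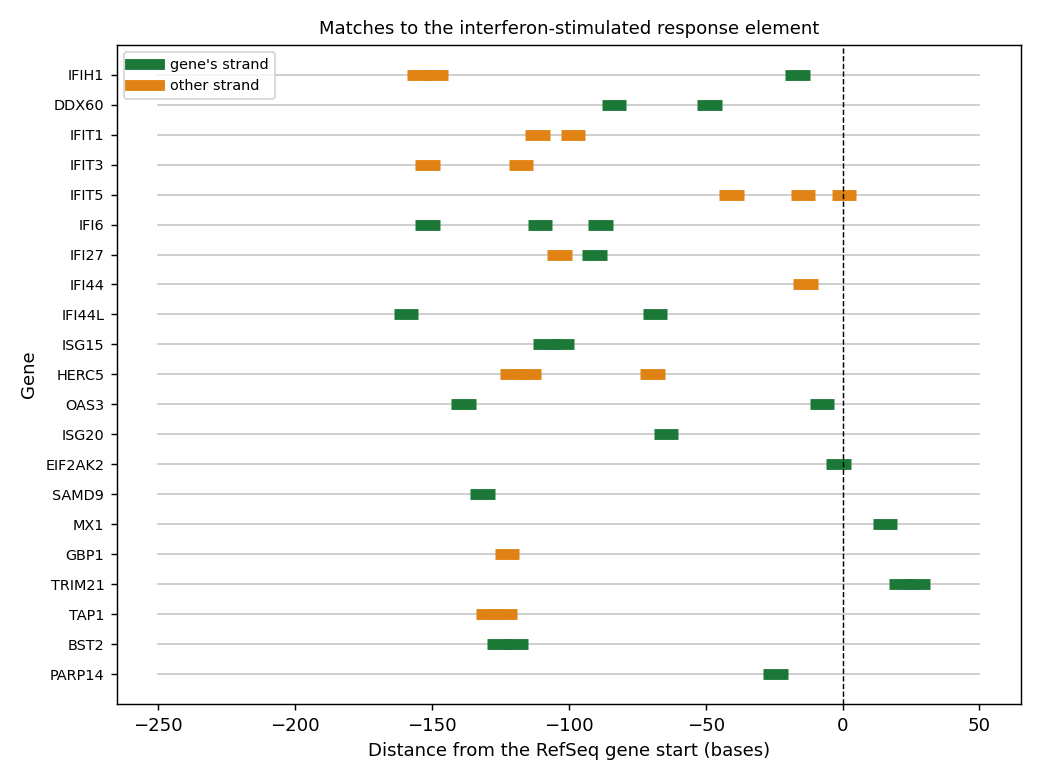
Positions of matches to the interferon-stimulated response element in the 21 member promoters that hold 1, as distance in bases from the RefSeq gene start (dashed line); grey lines mark the 300 bases searched and colours the strand. Matches begin between positions -164 (IFI44L) and 23 (TRIM21), and those of MX1 and TRIM21 lie after the start.

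The genes did not move as a single block, though most pairs of them were positively correlated. Over the 10 group means of log2 CPM, the median correlation between 2 of the 43 genes that reached 1 CPM was 0.379, with a range from -0.952 to 0.985, and 638 of 903 pairs were above 0. These correlations describe 10 points that share libraries, and the matching values for all genes were not computed. The highest group mean fell in MYCN-low cells at day 14 for 16 of the 43 genes, and the lowest in untreated MYCN-high cells for 17. The first of these groups is a single library, whose value varies more than a mean of 2 and is more easily an extreme. Peaks were not counted over all genes. PARP9 (r = 0.967), IFIT3 (0.963), SAMD9L (0.952) and XAF1 (0.935) were closest to the mean profile of the others. USP18 (-0.731), OAS3 (-0.688), TRIM25 (-0.506), EIF2AK2 (-0.488) and IFI44L (-0.461) ran against it. These 5 include USP18, which removes ISG15 from proteins and restrains receptor signalling, and EIF2AK2, the RNA-activated kinase PKR. The range of group means was narrowest for the RNA editor ADAR, at 1.23-fold (391 to 479 CPM), and widest among genes with counts in every group for TRIM22, at 118-fold.

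**Figure D2:**
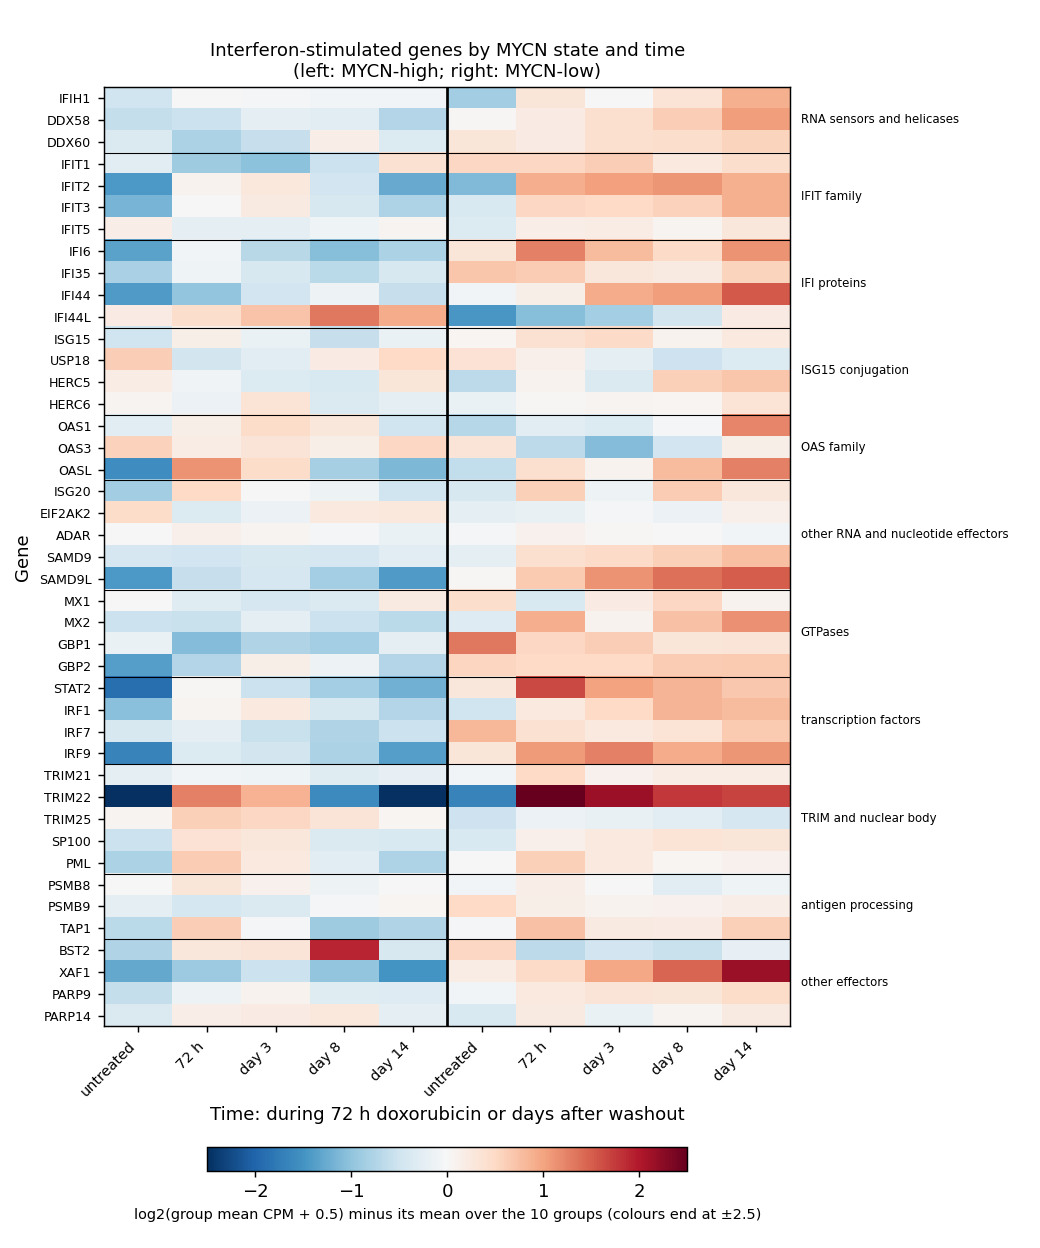
Group means of 43 interferon-stimulated genes as log2(CPM + 0.5) minus the mean of each gene over the 10 groups; rows are genes sorted by role, columns are time points, with MYCN-high on the left and MYCN-low on the right of the black line. Most rows are bluer on the left, TRIM22 spans the whole colour scale, and IFI44L, OAS3 and TRIM25 run the other way; with ERCC scaling most state differences at 72 h and day 3 turn.

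Against MYCN-low cells, MYCN-high cells had lower levels of many interferon-stimulated genes at every time. In untreated cells 17 of the 45 tested genes were called lower and 4 higher, where 35.1% of all genes were called (18.6% lower, 16.5% higher). After 72 h of doxorubicin 19 were lower and 3 higher (background 29.9% called, 14.4% lower), and on day 3 after washout 15 were lower and 3 higher (31.8% called, 14.8% lower). On day 8 these counts were 21 and 4 (43.9% called, 20.5% lower), and on day 14 they were 24 and 2 (41.8% called, 20.5% lower). The median log2 difference over the 45 genes was -0.63, -0.54, -0.35, -0.83 and -0.98 at the 5 times in that order, while the median of all genes lay between -0.04 and 0.04. With members at 0 counts set to their bound, the day 3 median was -0.27 and the other 4 were the same. Every called gene had libraries that did not overlap between the states. With at most 2 libraries per group such separation is common and closely tied to the call, so it adds no further support. The same count over all genes was not made. DDX58, IFI6, IFI35, IFI44, SAMD9L, STAT2, IRF9, TRIM22 and XAF1 were lower in MYCN-high cells at all 5 times, and TRIM25 was higher at all 5 (with ERCC scaling, described next, these signs turned at 72 h and on day 3 for the 9 lower genes apart from XAF1 on day 3, in untreated cells for DDX58, and on day 14 for TRIM25).

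These differences are relative to the rest of the transcriptome. Scaling by the ERCC spike-in RNAs moved the median of all genes by up to 2.51 on the log2 scale (MYCN-high against MYCN-low, 72 h), and it left no member called in any state comparison. It turned the sign of 18 of the 22 calls at 72 h, 14 of 18 on day 3, 3 of 21 in untreated cells, 3 of 25 on day 8 and 1 of 26 on day 14. With that scaling the members' median stood below the median gene. The gap was 0.62 in untreated cells, 0.48 at 72 h, 0.45 on day 3, 0.83 on day 8 and 1.00 on day 14. A scaling of libraries moves all genes of a comparison by about the same amount. This gap was therefore nearly fixed in advance and adds no support. The ERCC share itself ran from 0.0116% to 0.537% of counts, and in the MYCN-high pair at 72 h it was 0.0116% and 0.191%. Leaving out single libraries cost calls: in untreated cells 14 remained without MYCN-high replicate B, at 72 h 12 without MYCN-high replicate C, on day 3 12 without MYCN-high replicate C, on day 8 18 without MYCN-high replicate C, and on day 14 19 without MYCN-high replicate B. IFI6, IRF9, SAMD9L and STAT2 were called at all 5 times without each library that could be left out. The only MYCN-low library of day 14 could not be.

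**Figure D3:**
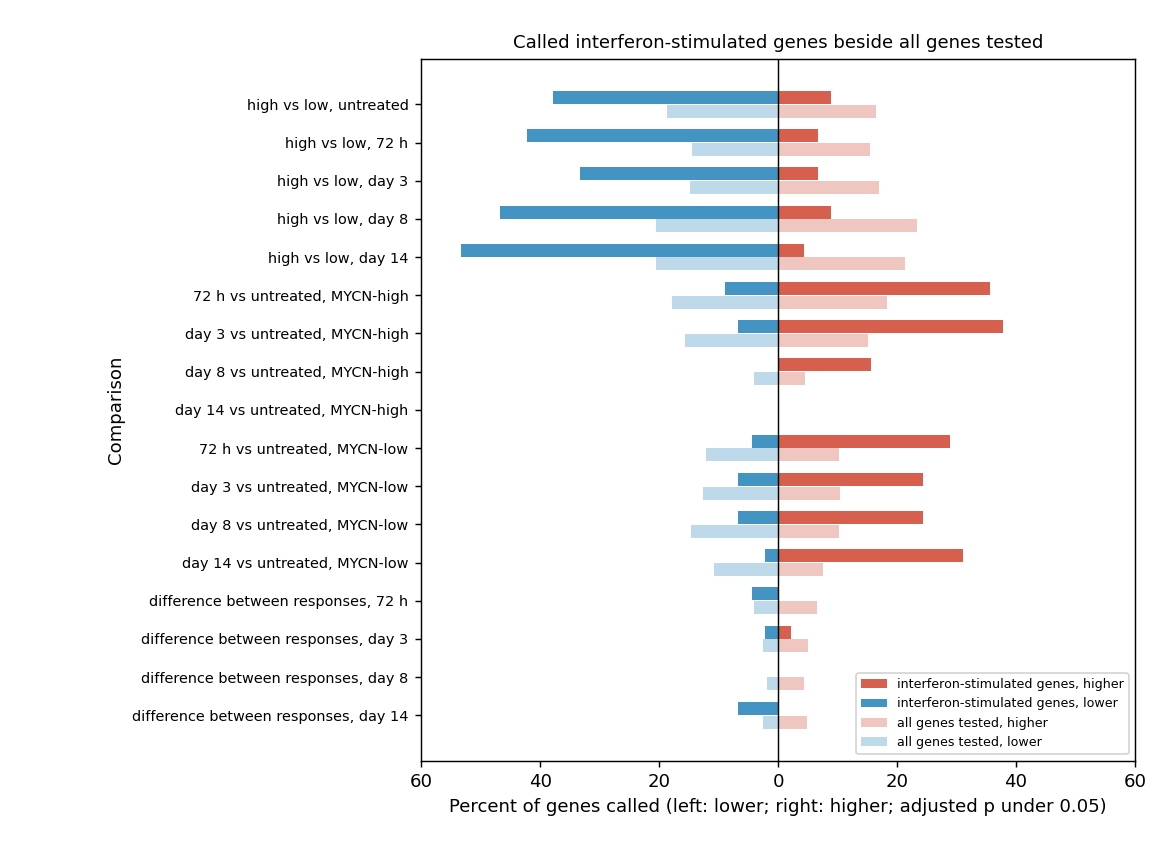
Share of the 45 tested interferon-stimulated genes (strong colours) and of all 14793 tested genes (pale colours) called higher (right of 0) or lower (left of 0) in each of 17 comparisons, in percent, at an edgeR adjusted p below 0.05 with TMM scaling. In MYCN-high against MYCN-low cells the members lie to the left and the background is nearly even. After doxorubicin the members lie to the right, except in MYCN-high cells on day 14, where none was called. With ERCC scaling 18 of the 22 state calls at 72 h and 14 of 18 on day 3 turn sign. Nearly all calls are lost with that scaling.

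After doxorubicin, interferon-stimulated genes rose in both MYCN states up to day 8, and by day 14 none was called in MYCN-high cells. In MYCN-high cells 16 rose and 4 fell after 72 h (36.2% of all genes called, 18.3% higher), 17 rose and 3 fell on day 3 (30.8% called, 15.1% higher), and 7 rose and 0 fell on day 8 (8.58% called, 4.49% higher, 4.09% lower). On day 14, 0 of 45 were called by edgeR, 4 had an unadjusted p below 0.05, DESeq2's Wald test called 0, and 0% of all genes were called by edgeR. In MYCN-low cells 13 rose and 2 fell after 72 h (22.3% called, 10.2% higher), 11 rose and 3 fell on day 3 (23.2% called, 10.5% higher), and 11 rose and 3 fell on day 8 (24.9% called, 10.2% higher). On day 14, 14 were higher and 1 lower than in untreated MYCN-low cells (18.4% called, 7.63% higher). The median log2 change over the 45 genes was 0.51, 0.47, 0.29 and 0.16 in MYCN-high cells and 0.50, 0.39, 0.38 and 0.61 in MYCN-low cells, with the median of all genes between -0.05 and 0.03. With members at 0 counts set to their bound, the largest move was at 72 h in MYCN-low cells, to 0.42.

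The rises were partly of the same genes. After 72 h, IFI6, IFIT2, IFIT3, IRF9, PARP14, SP100, STAT2, TAP1, TRIM22 and TRIM25 rose in both states, which is 62.5% of the genes that rose in MYCN-high cells and 76.9% of those in MYCN-low cells. Over all genes tested the matching shares at 72 h were 30.4% and 54.4%. On day 3, 8 members were shared (47.1% and 72.7%, beside 35.4% and 51.1% over all genes), and on day 8, 5 were shared (71.4% and 45.5%, beside 47.6% and 20.8%). These are descriptions with no test. The states have separate untreated groups. With ERCC scaling 1 call remained in these comparisons, at 72 h in MYCN-high cells; no called rise turned, and the falls in MYCN-high cells (IFIT5, USP18, EIF2AK2 and GBP1 at 72 h, the last 3 also on day 3) turned, as did USP18 and OAS3 on day 8 in MYCN-low cells. The MYCN-high counts at 72 h stayed between 14 (without untreated replicate B) and 18 when single libraries were left out. On day 3 they lay between 12 (without day 3 replicate C) and 13. The 7 calls on day 8 fell to 1, TRIM22, without untreated replicate B or without day 8 replicate B, and to 2 without day 8 replicate C. In MYCN-low cells the untreated pair was the least alike of all pairs, with 7 members more than 2-fold apart. Counts there ran from 5 (without 72 h replicate B) to 18 (without untreated replicate C) at 72 h and from 4 (without day 3 replicate C) to 14 on day 3. On day 8 they ran from 8 (without day 8 replicate B) to 22 (without untreated replicate C), and on day 14 from 11 (without untreated replicate B) to 20 (without untreated replicate C). Genes with and without an exact match to the response element as searched were both among those called after the drug. After 72 h in MYCN-high cells, 5 of 21 tested genes with a match were called higher and 3 lower. Of the 16 without one, 7 were higher and 0 lower. In MYCN-low cells these counts were 7 higher and 2 lower with a match, and 4 higher and 0 lower without it. Promoters without a match can hold close variants. GGAAACGAAA, which differs from the pattern in 1 letter, occurs in those of OAS1, DDX58 and RSAD2. The split therefore does not separate genes with an element from genes that lack one.

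**Figure D4:**
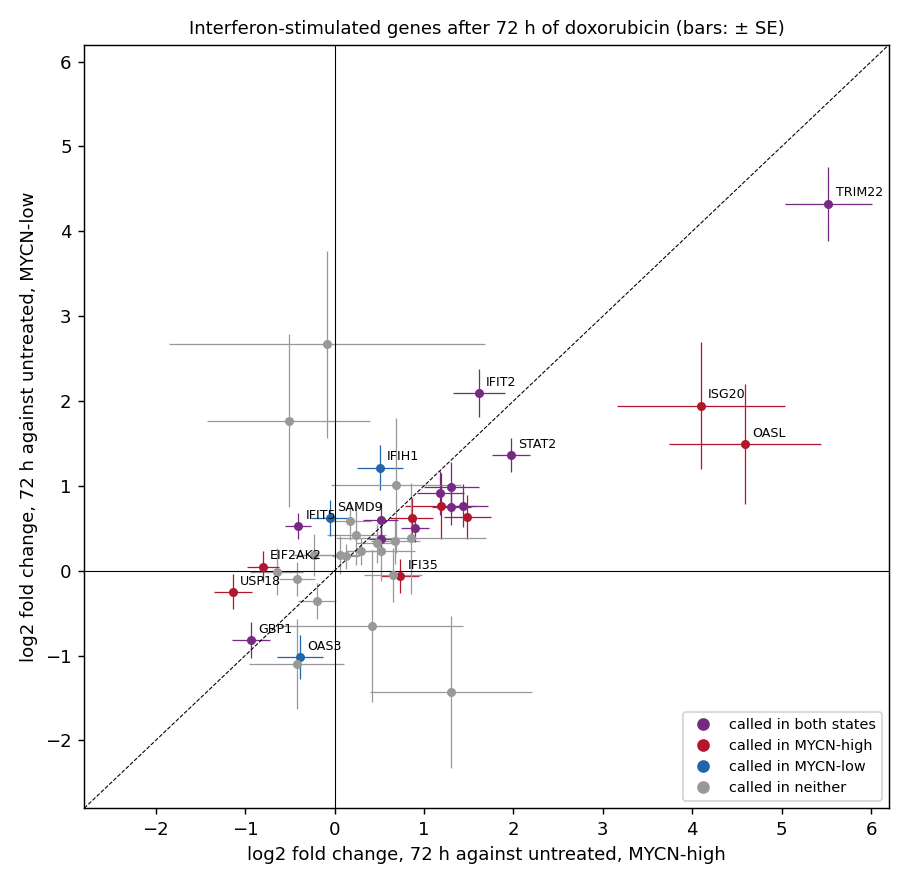
Log2 fold change of 43 interferon-stimulated genes after 72 h of doxorubicin in MYCN-high (x) and MYCN-low (y) cells with TMM scaling; points are genes, bars are ± SE, colours show where the gene was called, and the dashed line marks equal responses. Most called genes lie in the upper right with TRIM22 farthest out, while GBP1 fell in both states and IFIT5 moved in opposite directions; with ERCC scaling the falls of USP18, GBP1, EIF2AK2 and IFIT5 in MYCN-high cells turn.

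Of the 4 transcription factors, STAT2 and IRF9, subunits of the response complex, were lower in MYCN-high cells at every time and rose after the drug in both states. MYCN-high libraries held STAT2 at 11.0 and 12.4 CPM untreated, 44.8 and 47.0 after 72 h, 30.8 and 30.5 on day 3, 29.6 and 19.5 on day 8 and 17.0 and 21.1 on day 14 (replicates B and C in this order throughout). In MYCN-low libraries STAT2 stood at 62.1 and 47.2 CPM untreated, 127 and 155 after 72 h, 84.1 and 95.8 on day 3, 82.3 and 79.8 on day 8 and 71.7 on day 14. Every MYCN-low library lay above every MYCN-high library. In untreated cells the difference was -2.22 ± 0.21 (edgeR adjusted p = 1.03e-05), and on day 14 it was -1.91 ± 0.24 (edgeR adjusted p = 2.72e-05). After 72 h STAT2 rose by 1.97 ± 0.21 (edgeR adjusted p = 5.39e-06) in MYCN-high cells and by 1.36 ± 0.20 (edgeR adjusted p = 0.000163) in MYCN-low cells. On day 3 the rises were 1.39 ± 0.21 and 0.72 ± 0.20, and the latter lost its call without MYCN-low day 3 replicate C (0.61, edgeR adjusted p = 0.117). By day 8 they were 1.07 ± 0.21, which fell to 0.74 (edgeR adjusted p = 0.096) without MYCN-high day 8 replicate B, and 0.57 ± 0.20, which fell to 0.41 (edgeR adjusted p = 0.172) without MYCN-low untreated replicate C. With ERCC scaling the STAT2 difference between states turned at 72 h (0.84) and on day 3 (0.29).

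IRF9, the DNA-binding subunit of the complex, stood at 3.51 and 3.66 CPM untreated, 10.1 and 9.28 after 72 h, 8.81 and 9.07 on day 3, 8.23 and 5.80 on day 8 and 3.16 and 5.84 on day 14 in MYCN-high libraries. In MYCN-low libraries IRF9 stood at 13.5 and 17.6 CPM untreated, 27.2 and 25.9 after 72 h, 26.0 and 35.4 on day 3, 25.2 and 23.3 on day 8 and 27.7 on day 14. No MYCN-high library reached the lowest MYCN-low library. The state difference was -2.12 ± 0.27 (edgeR adjusted p = 7.01e-05) in untreated cells and -2.61 ± 0.31 (edgeR adjusted p = 1.8e-05) on day 14. In MYCN-high cells IRF9 rose by 1.44 ± 0.27 (edgeR adjusted p = 0.000752) after 72 h and by 1.32 ± 0.27 on day 3. In MYCN-low cells its rise of 0.77 ± 0.25 (edgeR adjusted p = 0.0406) after 72 h was not stable, since without MYCN-low untreated replicate B it was 0.59 with an edgeR adjusted p of 0.197. On day 3 the rise of 0.97 ± 0.25 shrank without MYCN-low day 3 replicate C to 0.73 (edgeR adjusted p = 0.12). On day 8 the call in MYCN-high cells (0.97 ± 0.27) was lost without any 1 of the 4 libraries (edgeR adjusted p = 0.0511 to 0.305). The state difference turned with ERCC scaling at 72 h (1.14) and on day 3 (0.11).

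IRF1, a transcription factor induced by interferon, differed between the states on days 8 and 14. Its MYCN-high libraries held 3.36 and 5.64 CPM untreated, 8.14 and 12.4 after 72 h, 10.5 and 12.9 on day 3, 8.14 and 6.49 on day 8 and 2.75 and 8.76 on day 14. Its MYCN-low libraries held 5.77 and 7.94 CPM untreated, 11.3 and 12.1 after 72 h, 14.8 and 13.4 on day 3, 17.9 and 18.1 on day 8 and 17.3 on day 14. The states overlapped at 72 h and at no other time. The difference was called on day 8 (-1.30 ± 0.39, edgeR adjusted p = 0.0133), when without MYCN-high day 8 replicate C it was -1.15 with an edgeR adjusted p of 0.104. It was also called on day 14 (-1.57 ± 0.46, edgeR adjusted p = 0.0121), when without MYCN-high day 14 replicate B it was -1.04 with an edgeR adjusted p of 0.0524. IRF1 rose in MYCN-high cells after 72 h (1.18 ± 0.40, edgeR adjusted p = 0.0296) and on day 3 (1.37 ± 0.40, edgeR adjusted p = 0.0167), but without MYCN-high untreated replicate B these values were 0.87 (edgeR adjusted p = 0.204) and 1.07 (edgeR adjusted p = 0.141). In MYCN-low cells its rise was called on day 8 (1.39 ± 0.39, edgeR adjusted p = 0.0173), and without MYCN-low untreated replicate B it was 1.18 with an edgeR adjusted p of 0.108. IRF7, which amplifies interferon production, was scarce: 0.0975 and 0.509 CPM untreated, 0.297 and 0.526 after 72 h, 0.272 and 0.178 on day 3, 0 and 0.264 on day 8 and 0.117 and 0.352 on day 14 in MYCN-high libraries. In MYCN-low libraries IRF7 stood at 1.81 and 0.957 CPM untreated, 1.41 and 0.338 after 72 h, 0.996 and 0.506 on day 3, 1.03 and 0.655 on day 8 and 1.17 on day 14. It passed the test in no comparison; the state value nearest to the threshold was -2.67 ± 1.10 (edgeR adjusted p = 0.0622), on day 8.

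**Figure D5:**
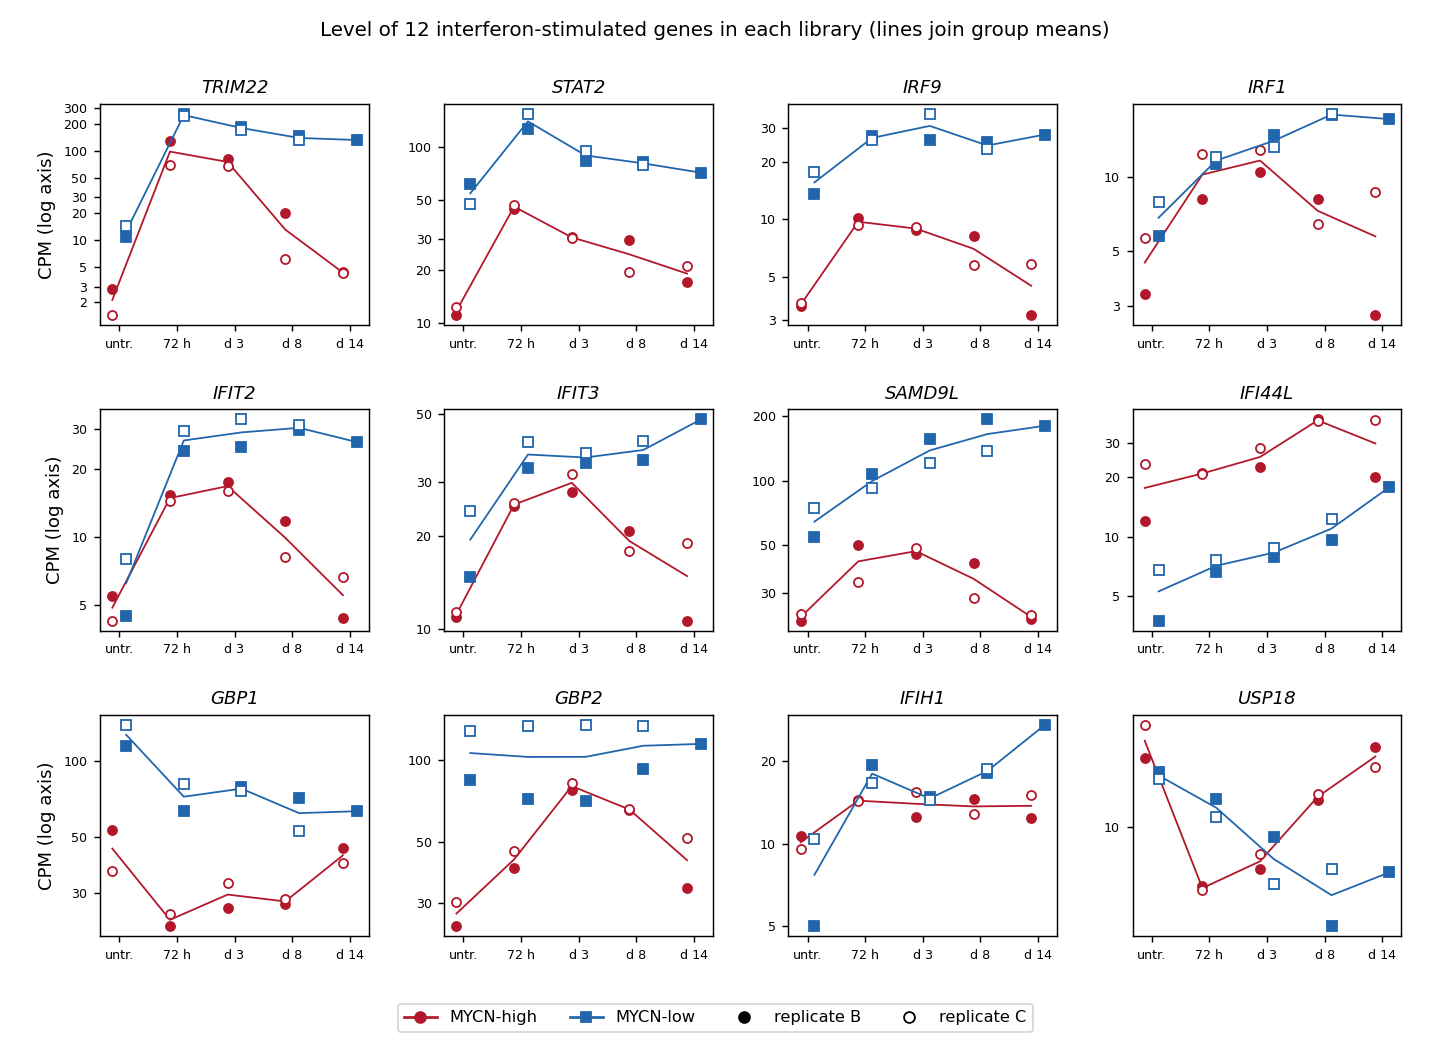
CPM (log axis, scale differs by panel) of 12 interferon-stimulated genes in each library by time point, MYCN-high in red circles and MYCN-low in blue squares; filled symbols are replicate B, open symbols replicate C, and lines join group means (day 14 of MYCN-low is 1 library). STAT2, IRF9, SAMD9L and GBP1 are separated by state at every time, IFI44L is separated in the other direction, and in TRIM22 and IFIT2 the MYCN-high line returns towards its untreated level by day 14 while the MYCN-low library stays high; these are TMM-scaled levels, and with ERCC scaling the state differences of STAT2, IRF9, SAMD9L and GBP1 turn at 72 h and on day 3.

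TRIM22, an antiviral ubiquitin ligase, had the largest drug response among the members called at 72 h in both states. Its MYCN-high libraries held 2.83 and 1.43 CPM untreated, 127 and 68.5 after 72 h, 81.7 and 68.0 on day 3, 20.04 and 6.12 on day 8 and 4.39 and 4.23 on day 14. Its MYCN-low libraries held 10.7 and 14.2 CPM untreated, 258 and 244 after 72 h, 187 and 173 on day 3, 146 and 133 on day 8 and 132 on day 14. At 72 h every treated library was far above the untreated ones in the same state, and the states never overlapped. The rise at 72 h was 5.52 ± 0.49 (edgeR adjusted p = 1.36e-06) in MYCN-high cells and 4.33 ± 0.44 (edgeR adjusted p = 2.99e-06) in MYCN-low cells. In MYCN-low cells it was still 3.40 ± 0.46 (edgeR adjusted p = 0.000289) on day 14, and in MYCN-high cells it was 2.63 ± 0.46 (edgeR adjusted p = 0.00286) on day 8 and 1.02 ± 0.48 (edgeR adjusted p = 0.592) on day 14. The difference between states was -2.55 ± 0.46 (edgeR adjusted p = 0.000699) in untreated cells and -4.93 ± 0.49 (edgeR adjusted p = 5.49e-06) on day 14. At 72 h and on day 3 the state differences were smaller, -1.36 ± 0.38 and -1.26 ± 0.38; without MYCN-high replicate C of the same time they were -0.98 (edgeR adjusted p = 0.142) and -1.14 (edgeR adjusted p = 0.135), and with ERCC scaling they turned.

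Of the 5 TRIM and nuclear body genes, 4 rose after 72 h in MYCN-high cells and 3 in MYCN-low cells, where 18.3% and 10.2% of all genes were called higher, and none fell. PML and SP100 build the nuclear bodies that many interferon-induced proteins join. PML stood at 8.24 and 6.43 CPM untreated, 15.9 and 25.2 after 72 h, 16.0 and 15.1 on day 3, 12.6 and 9.07 on day 8 and 6.97 and 7.96 on day 14 in MYCN-high libraries. The MYCN-low libraries of PML held 15.9 and 10.1 CPM untreated, 21.8 and 18.4 after 72 h, 15.9 and 15.2 on day 3, 13.7 and 13.5 on day 8 and 14.2 on day 14. It rose by 1.49 ± 0.27 (edgeR adjusted p = 0.000481) in MYCN-high cells after 72 h, and the treated libraries were above the untreated ones. SP100 rose by 0.90 ± 0.16 in MYCN-high and 0.50 ± 0.16 in MYCN-low cells, and in the latter without MYCN-low untreated replicate B it was 0.34 with an edgeR adjusted p of 0.188. TRIM25, the ligase that ubiquitinates the RNA sensor RIG-I, was the member that was higher in MYCN-high cells at all 5 times, by 0.60 ± 0.13 in untreated cells, 0.73 ± 0.13 at 72 h and 0.47 ± 0.16 on day 14, where the call was lost without either MYCN-high library (edgeR adjusted p = 0.0764 and 0.162) and the sign turned with ERCC scaling. TRIM21, an antibody receptor of the cytosol, stayed between 15.1 and 31.3 CPM and was not called in any comparison.

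The RNA sensors and helicases IFIH1 (MDA5), DDX58 (RIG-I) and DDX60 were partly lower in MYCN-high cells: 2 of 3 in untreated cells, at 72 h and on day 3, 1 on day 8 and 3 on day 14. Of all genes, 18.6%, 14.4%, 14.8%, 20.5% and 20.5% were called lower at these times. With ERCC scaling the signs at 72 h and on day 3 turned. IFIH1 stood at 10.7 and 9.53 CPM untreated, 14.4 and 14.3 after 72 h, 12.4 and 15.5 on day 3, 14.5 and 12.8 on day 8 and 12.4 and 15.1 on day 14 in MYCN-high libraries. It stood at 5.00 and 10.4 CPM untreated, 19.4 and 16.6 after 72 h, 14.8 and 14.5 on day 3, 18.0 and 18.8 on day 8 and 27.1 on day 14 in MYCN-low libraries, where the untreated pair was over 2-fold apart. In MYCN-low cells IFIH1 rose by 1.22 ± 0.26 (edgeR adjusted p = 0.00378) after 72 h and by 1.81 ± 0.30 (edgeR adjusted p = 0.0011) by day 14. In MYCN-high cells it was not called, and the difference between the responses was not called either, with -1.37 ± 0.40 (edgeR adjusted p = 0.0521) on day 14. DDX58 stood at 16.8 and 14.7 CPM untreated, 19.7 and 13.2 after 72 h, 21.3 and 19.6 on day 3, 17.0 and 22.9 on day 8 and 11.8 and 16.8 on day 14 in MYCN-high libraries. In MYCN-low libraries DDX58 stood at 22.1 and 26.8 CPM untreated, 30.6 and 25.1 after 72 h, 32.8 and 30.8 on day 3, 38.3 and 36.1 on day 8 and 50.1 on day 14. The states did not overlap within any time, and the difference on day 14 was -1.81 ± 0.27 (edgeR adjusted p = 9.56e-05). The DDX58 differences in untreated cells and on day 3, both -0.63, lost the call without any 1 library (edgeR adjusted p = 0.0525 to 0.19 and 0.089 to 0.197), and those in untreated cells, at 72 h and on day 3 turned with ERCC scaling. DDX60, a helicase that aids RIG-I, stood at 31.0 and 33.7 CPM untreated, 25.7 and 22.5 after 72 h, 25.4 and 30.4 on day 3, 48.5 and 45.8 on day 8 and 33.7 and 31.7 on day 14 in MYCN-high libraries. The MYCN-low libraries of DDX60 held 39.6 and 64.1 CPM untreated, 45.3 and 52.0 after 72 h, 60.5 and 49.8 on day 3, 56.5 and 57.9 on day 8 and 61.4 on day 14. The states did not overlap within any time. DDX60 was lower in MYCN-high cells after 72 h (-1.01 ± 0.20, edgeR adjusted p = 0.00156), and with ERCC scaling this was 1.57.

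Within the IFIT family, whose proteins bind viral RNA, IFIT2 and IFIT3 rose with the drug, while IFIT1 was not called. IFIT2 stood at 5.46 and 4.26 CPM untreated, 15.4 and 14.4 after 72 h, 17.6 and 16.1 on day 3, 11.7 and 8.12 on day 8 and 4.39 and 6.65 on day 14 in MYCN-high libraries. In MYCN-low libraries IFIT2 stood at 4.45 and 8.02 CPM untreated, 24.1 and 29.5 after 72 h, 25.0 and 33.2 on day 3, 29.7 and 31.3 on day 8 and 26.4 on day 14. The untreated groups of the 2 states overlapped, and from 72 h on every MYCN-low library was above every MYCN-high library. IFIT2 rose by 1.61 ± 0.29 (edgeR adjusted p = 0.000468) in MYCN-high and 2.09 ± 0.29 (edgeR adjusted p = 7.23e-05) in MYCN-low cells after 72 h. The rise was still 2.07 ± 0.33 (edgeR adjusted p = 0.000726) on day 14 in MYCN-low cells, and in MYCN-high cells it was 0.19 ± 0.30 (edgeR adjusted p = 0.904). On day 8 the rise in MYCN-high cells (1.03 ± 0.29) was called only with all libraries (edgeR adjusted p = 0.0505 to 0.295 without any 1 of 4). IFIT2 was lower in MYCN-high cells, with log2 differences of -1.62 ± 0.28 (edgeR adjusted p = 0.000257) on day 8 and -2.25 ± 0.33 (edgeR adjusted p = 8.81e-05) on day 14. At 72 h and on day 3 the differences of -0.85 ± 0.27 and -0.79 ± 0.27 were smaller, turned with ERCC scaling, and without MYCN-low replicate C of the same time were -0.70 (edgeR adjusted p = 0.154) and -0.58 (edgeR adjusted p = 0.223).

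IFIT3 held 11.0 and 11.4 CPM untreated, 25.1 and 25.7 after 72 h, 27.8 and 32.0 on day 3, 20.8 and 17.9 on day 8 and 10.7 and 19.1 on day 14 in MYCN-high libraries. Its MYCN-low libraries held 14.8 and 24.3 CPM untreated, 33.3 and 40.6 after 72 h, 34.8 and 37.5 on day 3, 35.6 and 40.9 on day 8 and 48.1 on day 14. Within each time the MYCN-low libraries were above the MYCN-high ones. It rose by 1.18 ± 0.26 (edgeR adjusted p = 0.00226) and 1.42 ± 0.26 in MYCN-high cells at 72 h and day 3. In MYCN-low cells the rise was 1.29 ± 0.30 (edgeR adjusted p = 0.00773) by day 14; at 72 h it was 0.92 ± 0.25, and without MYCN-low untreated replicate B it was 0.60 with an edgeR adjusted p of 0.142. IFIT1, the family member that recognises unmethylated caps, stood at 7.07 and 10.9 CPM untreated, 5.94 and 5.50 after 72 h, 5.22 and 5.10 on day 3, 7.62 and 7.23 on day 8 and 12.5 and 16.3 on day 14 in MYCN-high libraries. In MYCN-low libraries IFIT1 stood at 11.0 and 20.8 CPM untreated, 16.9 and 14.7 after 72 h, 14.5 and 19.4 on day 3, 12.4 and 13.9 on day 8 and 15.1 on day 14. The states overlapped on day 14 and at no other time. The change of IFIT1 after 72 h in MYCN-high cells was not called (-0.65 ± 0.29, edgeR adjusted p = 0.0963). It was lower than in MYCN-low cells at 72 h (-1.47 ± 0.29, edgeR adjusted p = 0.0015) and on day 3 (-1.71 ± 0.30, edgeR adjusted p = 0.000443), with 1.14 and 0.19 on ERCC scaling. IFIT5 changed in opposite directions, with -0.41 ± 0.15 in MYCN-high cells from 48.3 and 52.5 to 40.7 and 35.3 CPM and 0.53 ± 0.15 in MYCN-low cells from 31.7 and 38.8 to 50.3 and 51.2 CPM. Both calls depended on the libraries, since without MYCN-high 72 h replicate C it was -0.30 with an edgeR adjusted p of 0.235, and in MYCN-low cells without MYCN-low untreated replicate B it was 0.39 with an edgeR adjusted p of 0.102; the fall turned with ERCC scaling.

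IFI6, IFI35 and IFI44 were lower in MYCN-high cells at all 5 times (with ERCC scaling their signs turned at 72 h and on day 3), while IFI44L, which lies beside IFI44 on chromosome 1, was higher at 4 of them. IFI6, an anti-apoptotic protein, stood at 10.4 and 11.0 CPM untreated, 21.5 and 31.5 after 72 h, 17.2 and 16.8 on day 3, 14.6 and 11.6 on day 8 and 16.2 and 15.6 on day 14 in MYCN-high libraries. The MYCN-low libraries of IFI6 held 47.0 and 21.7 CPM untreated, 70.4 and 64.8 after 72 h, 36.9 and 59.9 on day 3, 39.2 and 39.3 on day 8 and 61.0 on day 14. The states did not overlap within any time. IFI6 rose by 1.30 ± 0.31 (edgeR adjusted p = 0.00373) in MYCN-high cells after 72 h, and its rise of 0.98 ± 0.30 in MYCN-low cells was not stable, since without MYCN-low untreated replicate C it was 0.50 with an edgeR adjusted p of 0.161. IFI35, a regulator of innate signalling, stood at 6.29 and 7.50 CPM untreated, 10.6 and 12.3 after 72 h, 8.75 and 9.79 on day 3, 7.49 and 7.70 on day 8 and 8.49 and 10.2 on day 14 in MYCN-high libraries. In MYCN-low libraries IFI35 stood at 23.1 and 17.8 CPM untreated, 20.9 and 18.3 after 72 h, 16.5 and 14.2 on day 3, 15.8 and 13.4 on day 8 and 18.6 on day 14, again without overlap. The difference was -1.57 ± 0.21 (edgeR adjusted p = 9.01e-05) in untreated cells. IFI44 stood at 1.80 and 3.01 CPM untreated, 4.20 and 2.68 after 72 h, 6.36 and 3.80 on day 3, 6.69 and 6.54 on day 8 and 3.98 and 5.49 on day 14 in MYCN-high libraries. The MYCN-low libraries of IFI44 held 4.56 and 9.18 CPM untreated, 6.43 and 9.80 after 72 h, 13.8 and 14.8 on day 3, 15.0 and 15.9 on day 8 and 21.9 on day 14. Its states did not overlap within any time. The state difference of IFI44 was -2.21 ± 0.42 (edgeR adjusted p = 0.000677) on day 14, and in MYCN-low cells its rise to day 14 was 1.66 ± 0.41 (edgeR adjusted p = 0.0121), but without MYCN-low untreated replicate B it was 1.25 with an edgeR adjusted p of 0.0618.

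IFI44L ran the other way, with 12.0 and 23.4 CPM untreated, 21.0 and 20.9 after 72 h, 22.6 and 28.3 on day 3, 39.5 and 38.6 on day 8 and 20.2 and 39.4 on day 14 in MYCN-high libraries. In MYCN-low libraries it held 3.74 and 6.78 CPM untreated, 6.57 and 7.63 after 72 h, 7.83 and 8.75 on day 3, 9.63 and 12.3 on day 8 and 17.8 on day 14. At each time both MYCN-high libraries were above the MYCN-low libraries. The difference was 1.74 ± 0.35 (edgeR adjusted p = 0.00162) in untreated cells and 1.83 ± 0.34 (edgeR adjusted p = 0.000497) on day 8, and on day 14 it was 0.74 ± 0.42 (edgeR adjusted p = 0.171). IFI44L rose in both states by day 8, by 1.14 ± 0.33 (edgeR adjusted p = 0.0465) in MYCN-high and 1.05 ± 0.35 (edgeR adjusted p = 0.0392) in MYCN-low cells, and without untreated replicate B of the same state these were 0.75 (edgeR adjusted p = 0.348) and 0.70 (edgeR adjusted p = 0.249).

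SAMD9 and SAMD9L are neighbouring genes whose products restrict poxviruses and slow growth. SAMD9L stood at 22.3 and 24.0 CPM untreated, 50.4 and 33.9 after 72 h, 45.3 and 48.6 on day 3, 41.3 and 28.6 on day 8 and 22.6 and 23.8 on day 14 in MYCN-high libraries. In MYCN-low libraries SAMD9L stood at 54.5 and 74.4 CPM untreated, 107 and 92.1 after 72 h, 156 and 120.5 on day 3, 193 and 137 on day 8 and 180.1 on day 14. All MYCN-low libraries were above all MYCN-high libraries. The difference was -1.48 ± 0.24 (edgeR adjusted p = 0.000362) in untreated cells and -2.96 ± 0.28 (edgeR adjusted p = 4.08e-06) on day 14, and with ERCC scaling it turned at 72 h (1.56) and on day 3 (0.12). In MYCN-low cells SAMD9L rose by 1.10 ± 0.24 (edgeR adjusted p = 0.00368) on day 3 and 1.48 ± 0.28 (edgeR adjusted p = 0.00218) by day 14. In MYCN-high cells it rose by 1.02 ± 0.24 (edgeR adjusted p = 0.00491) on day 3 and was back at 22.6 and 23.8 CPM on day 14, beside 22.3 and 24.0 CPM untreated. SAMD9 was lower in MYCN-high cells from 72 h on, at 132 and 105 CPM against 222 and 215 CPM at 72 h (-0.88 ± 0.21, edgeR adjusted p = 0.00588), where without MYCN-high 72 h replicate C it was -0.73 with an edgeR adjusted p of 0.0668; this and the day 3 difference turned with ERCC scaling.

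The OAS family makes the 2-5A signal that activates RNase L, and its measurable members moved differently. OAS3 stood at 23.3 and 24.2 CPM untreated, 15.4 and 21.0 after 72 h, 22.0 and 18.0 on day 3, 20.3 and 14.9 on day 8 and 27.3 and 18.2 on day 14 in MYCN-high libraries. In MYCN-low libraries it stood at 20.7 and 19.3 CPM untreated, 9.30 and 10.4 after 72 h, 8.82 and 5.51 on day 3, 10.3 and 12.2 on day 8 and 17.5 on day 14. Each MYCN-high library was above the MYCN-low libraries of its time. OAS3 fell in MYCN-low cells. The change was -1.02 ± 0.26 (edgeR adjusted p = 0.0116) after 72 h, where without MYCN-low 72 h replicate B it was -0.95 with an edgeR adjusted p of 0.0885, and -1.48 ± 0.27 (edgeR adjusted p = 0.000935) on day 3. On day 3 it was higher in MYCN-high cells by 1.47 ± 0.27 (edgeR adjusted p = 0.000613). OASL, an enzymatically inactive relative that binds double-stranded RNA, held 0.0975 and 0.185 CPM untreated, 2.12 and 5.02 after 72 h, 1.63 and 2.55 on day 3, 0.790 and 0.316 on day 8 and 0.468 and 0.252 on day 14 in MYCN-high libraries. In MYCN-low libraries OASL stood at 1.04 and 0.399 CPM untreated, 1.90 and 2.08 after 72 h, 0.950 and 2.02 on day 3, 1.18 and 4.31 on day 8 and 4.02 on day 14. OASL rose in MYCN-high cells by 4.59 ± 0.85 (edgeR adjusted p = 0.000639) after 72 h, from a base of 6 counts over the 2 untreated libraries. ISG20, an RNA exonuclease, was also called higher there (edgeR adjusted p = 0.00305), at 1.10 and 0.718 CPM against 0.0975 and 0 CPM, and its fold rests on 2 counts and is not given. OAS1 was called on day 14 in MYCN-low cells (2.65 CPM in the single library, against 0.440 and 0.199 CPM untreated), and without MYCN-low untreated replicate C the edgeR adjusted p was 0.0731. EIF2AK2 (PKR) was higher in untreated MYCN-high cells (0.68 ± 0.18, edgeR adjusted p = 0.00913), where without MYCN-low untreated replicate B it was 0.42 with an edgeR adjusted p of 0.0954. It fell there after 72 h (-0.80 ± 0.18, edgeR adjusted p = 0.00281), from 181 and 192 CPM to 117 and 96.5 CPM, which turned with ERCC scaling. ADAR was not called in any of the 13 comparisons of 2 groups, at 381 to 534 CPM.

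Of the 4 genes of ISG15 conjugation, USP18 was called in both states after the drug, and the other 3 in neither. USP18 stood at 14.4 and 17.3 CPM untreated, 7.30 and 7.13 after 72 h, 7.99 and 8.66 on day 3, 11.6 and 11.9 on day 8 and 15.3 and 13.8 on day 14 in MYCN-high libraries. In MYCN-low libraries it stood at 13.4 and 12.9 CPM untreated, 11.6 and 10.5 after 72 h, 9.46 and 7.39 on day 3, 5.89 and 8.00 on day 8 and 7.84 on day 14. It fell in MYCN-high cells after 72 h (-1.13 ± 0.21, edgeR adjusted p = 0.000649), and the 72 h libraries were below both untreated ones. By day 14 the MYCN-high libraries were at 15.3 and 13.8 CPM. In MYCN-low cells the change on day 8 was -0.92 ± 0.21 (edgeR adjusted p = 0.00548), where without MYCN-low day 8 replicate B it was -0.69 with an edgeR adjusted p of 0.0888. With ERCC scaling both changes turned, to 1.30 in MYCN-high and 0.12 in MYCN-low cells. ISG15 was lower in MYCN-high cells on day 8 (-0.70 ± 0.27, edgeR adjusted p = 0.0485), at 7.95 and 6.75 CPM against 12.5 and 11.4 CPM, and without any 1 library the edgeR adjusted p was 0.0783 to 0.224. HERC5, the ligase that attaches ISG15, reached 1.17 CPM at most, and HERC6 stayed between 10.5 and 19.9 CPM; neither was called.

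Among the GTPases, the guanylate-binding proteins GBP1 and GBP2 were abundant and moved apart. GBP1 stood at 53.3 and 36.7 CPM untreated, 22.2 and 24.8 after 72 h, 26.2 and 33.0 on day 3, 27.2 and 28.4 on day 8 and 45.2 and 39.4 on day 14 in MYCN-high libraries. In MYCN-low libraries it stood at 115 and 139 CPM untreated, 63.1 and 81.2 after 72 h, 79.1 and 76.3 on day 3, 71.6 and 52.7 on day 8 and 63.3 on day 14. The states did not overlap at any time and the difference was called at all times but day 14, with -1.50 ± 0.21 (edgeR adjusted p = 0.000131) in untreated cells and -1.62 ± 0.22 (edgeR adjusted p = 6.53e-05) at 72 h, and with ERCC scaling the values were 0.78 at 72 h and 0.28 on day 3. GBP1 fell after the drug, where most called members rose. In MYCN-low cells the change was -1.03 ± 0.21 (edgeR adjusted p = 0.00241) on day 8 and -1.01 ± 0.27 on day 14. In MYCN-high cells it was -0.94 ± 0.21 (edgeR adjusted p = 0.00294) after 72 h, and without MYCN-high untreated replicate B it was -0.63 with an edgeR adjusted p of 0.0595; this fall turned with ERCC scaling.

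GBP2 stood at 24.8 and 30.3 CPM untreated, 40.2 and 46.5 after 72 h, 77.7 and 82.6 on day 3, 65.8 and 65.9 on day 8 and 34.2 and 51.9 on day 14 in MYCN-high libraries. In MYCN-low libraries it stood at 84.1 and 128 CPM untreated, 71.9 and 133 after 72 h, 70.8 and 134 on day 3, 92.5 and 132 on day 8 and 114 on day 14. The states overlapped on day 3 and at no other time. In untreated cells the state difference of GBP2 was -1.94 ± 0.33 (edgeR adjusted p = 0.000502). It rose in MYCN-high cells by 1.54 ± 0.33 (edgeR adjusted p = 0.00265) on day 3, to 77.7 and 82.6 CPM, between the 2 MYCN-low libraries of that day, whose replicates stood at 70.8 and 134 CPM. MX1 (0.584 to 2.63 CPM) was not called in any comparison. MX2 had 25 counts in the MYCN-low library of day 14 and 0 in the pair of MYCN-high libraries, which is at least 15.7-fold lower against a floor of 3 counts over the group.

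TAP1, the peptide transporter of antigen presentation, rose after 72 h, and the immunoproteasome subunits PSMB8 and PSMB9 were not called after the drug. TAP1 stood at 36.7 and 34.2 CPM untreated, 95.1 and 79.9 after 72 h, 54.1 and 58.2 on day 3, 37.5 and 23.4 on day 8 and 32.8 and 34.7 on day 14 in MYCN-high libraries. The MYCN-low libraries of TAP1 held 66.2 and 46.2 CPM untreated, 103 and 85.7 after 72 h, 69.3 and 64.5 on day 3, 61.7 and 69.5 on day 8 and 86.0 on day 14. It rose by 1.30 ± 0.22 (edgeR adjusted p = 0.00025) in MYCN-high cells, and the states overlapped at 72 h. In MYCN-low cells the rise was 0.75 ± 0.21 (edgeR adjusted p = 0.0199), and without MYCN-low 72 h replicate B it was 0.59 with an edgeR adjusted p of 0.16. By day 8 TAP1 was lower in MYCN-high cells (-1.11 ± 0.22, edgeR adjusted p = 0.000708), and on day 14 too (-1.35 ± 0.25, edgeR adjusted p = 0.000603). PSMB9 was lower in untreated MYCN-high cells (-0.76 ± 0.21, edgeR adjusted p = 0.0114), where without MYCN-high untreated replicate B it was -0.68 with an edgeR adjusted p of 0.0796. PSMB8 stayed between 45.3 and 69.9 CPM and was not called.

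XAF1, which counteracts the apoptosis inhibitor XIAP, was scarce in MYCN-high libraries (0.0504 to 1.01 CPM) and stood at 2.36 and 0.957 CPM untreated, 2.53 and 1.74 after 72 h, 4.48 and 1.97 on day 3, 6.88 and 2.52 on day 8 and 8.00 on day 14 in MYCN-low libraries. The states did not overlap within any time, with -3.32 ± 0.73 (edgeR adjusted p = 0.0017) on day 8 and -5.55 ± 0.90 (edgeR adjusted p = 0.000201) on day 14. Its calls at the earlier times were lost without single libraries. In untreated cells without MYCN-low untreated replicate B it was -1.74 with an edgeR adjusted p of 0.186, and on day 3 without MYCN-low day 3 replicate B it was -1.31 with an edgeR adjusted p of 0.28. At 72 h the call was lost without any 1 library (edgeR adjusted p = 0.0655 to 0.177), and the sign turned with ERCC scaling. BST2 (tetherin), which holds budding viruses at the cell surface, stood at 1.80 and 0.740 CPM untreated, 1.70 and 4.59 after 72 h, 2.17 and 4.33 on day 3, 7.76 and 13.6 on day 8 and 0.468 and 3.07 on day 14 in MYCN-high libraries. In MYCN-low libraries BST2 stood at 1.15 and 6.34 CPM untreated, 0.779 and 2.03 after 72 h, 1.22 and 2.07 on day 3, 0.589 and 2.48 on day 8 and 2.09 on day 14. Replicates of BST2 differed widely in most groups. It was called higher in MYCN-high cells on day 8 (2.76 ± 0.89, edgeR adjusted p = 0.0203), but without MYCN-low day 8 replicate B it was 2.05 with an edgeR adjusted p of 0.158. PARP9 and PARP14, which modify proteins with ADP-ribose, varied by 2.07-fold and 1.57-fold between group means. PARP14 rose after 72 h in both states, by 0.52 ± 0.19 and 0.60 ± 0.19, and in MYCN-high cells the call was lost without any 1 library (edgeR adjusted p = 0.0656 to 0.241), while in MYCN-low cells without MYCN-low untreated replicate B it was 0.29 with an edgeR adjusted p of 0.253.

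The responses to doxorubicin differed between the states for few members. The difference in response was called for 2 of 45 at 72 h (10.7% of all genes called, 6.63% higher, 4.06% lower), 2 on day 3 (7.58% called, 5.1% higher, 2.48% lower), 0 on day 8 (6.35% called, 4.41% higher, 1.94% lower) and 3 on day 14 (7.41% called, 4.87% higher, 2.53% lower), so none of these totals was above its background share. By direction, the 3 calls on day 14 were all lower, 6.67% of the members beside 2.53% of all genes. On day 8, where edgeR called 0, 10 members had an unadjusted p below 0.05, and DESeq2's Wald test called 4. At 72 h the members were IFIT5 (-0.93 ± 0.21, edgeR adjusted p = 0.0144) and EIF2AK2 (-0.85 ± 0.26, edgeR adjusted p = 0.0457). For both, the change from untreated cells, not the level, was lower in MYCN-high cells. On day 3 the members were IFIT5 again (-0.92 ± 0.21, edgeR adjusted p = 0.016) and GBP2 (1.59 ± 0.46, edgeR adjusted p = 0.0478). The rise of GBP2 was larger in MYCN-high cells. On day 14 the changes of IFIT2 (-1.88 ± 0.44, edgeR adjusted p = 0.0204), SAMD9L (-1.48 ± 0.37, edgeR adjusted p = 0.0261) and TRIM22 (-2.38 ± 0.67, edgeR adjusted p = 0.0434) were smaller in MYCN-high cells. For these 3 genes the MYCN-high levels returned towards the untreated ones while the MYCN-low library stayed high. TRIM22 in MYCN-high cells had a mean of 4.31 CPM on day 14, beside 2.13 CPM untreated. The pattern is not particular to these genes, since IRF1 levels moved in a similar way without a called difference in response. The day 14 contrast rests on a single MYCN-low library, whose spread was taken to equal that of the remaining groups. With ERCC scaling the signs of IFIT5 at both times and of EIF2AK2 turned.

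None of these 7 calls held when each library was left out in turn. For IFIT5 at 72 h, without MYCN-high 72 h replicate C it was -0.81 with an edgeR adjusted p of 0.0683, and on day 3 without MYCN-high untreated replicate C it was -0.85 with an edgeR adjusted p of 0.0699. For EIF2AK2, without MYCN-high 72 h replicate C it was -0.69 with an edgeR adjusted p of 0.184. For GBP2, without MYCN-low day 3 replicate B it was 1.22 with an edgeR adjusted p of 0.166. On day 14 the omission of MYCN-high untreated replicate B gave -1.72 for IFIT2 (edgeR adjusted p = 0.0767), -1.55 for SAMD9L (edgeR adjusted p = 0.0617) and -1.84 for TRIM22 (edgeR adjusted p = 0.228). Leaving out MYCN-low untreated replicate C instead raised the number of called members to 12, 10, 7 and 14 at 72 h, day 3, day 8 and day 14, and the number of all called genes to 4365, 3848, 3036 and 2556.

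Of the other genes of the interferon pathway, 28 were tested. In MYCN-high against MYCN-low cells, 11 were lower and 1 higher when untreated, 7 and 5 after 72 h, 7 and 2 on day 3, 10 and 1 on day 8, and 14 and 1 on day 14. The called shares were 42.9%, 42.9%, 32.1%, 39.3% and 53.6%, beside 35.1%, 29.9%, 31.8%, 43.9% and 41.8% of all genes. The totals of days 3 and 8 were thus near or below the background. Shares called lower were 39.3%, 25%, 25%, 35.7% and 50%, beside 18.6%, 14.4%, 14.8%, 20.5% and 20.5% of all genes. Shares called higher were 3.57%, 17.9%, 7.14%, 3.57% and 3.57%, beside 16.5%, 15.5%, 17%, 23.4% and 21.4%. In MYCN-high cells 11 rose and 1 fell after 72 h, 8 rose and 0 fell on day 3, 3 rose and 0 fell on day 8, and 0 were called on day 14. In the same order the called shares were 42.9%, 28.6%, 10.7% and 0%, beside 36.2%, 30.8%, 8.58% and 0% of all genes. Shares called higher were 39.3%, 28.6%, 10.7% and 0%, beside 18.3%, 15.1%, 4.49% and 0%. Shares called lower were 3.57%, 0%, 0% and 0%, beside 17.9%, 15.7%, 4.09% and 0%. In MYCN-low cells the counts were 5 and 2, 5 and 4, 6 and 2, and 7 and 4. Their called shares were 25%, 32.1%, 28.6% and 39.3%, beside 22.3%, 23.2%, 24.9% and 18.4% of all genes. Shares called higher were 17.9%, 17.9%, 21.4% and 25%, beside 10.2%, 10.5%, 10.2% and 7.63%. Shares called lower were 7.14%, 14.3%, 7.14% and 14.3%, beside 12.1%, 12.7%, 14.6% and 10.7%. All 5 tested receptor chains (IFNAR1, IFNAR2, IFNGR1, IFNGR2 and IL10RB) were lower in MYCN-high cells on days 8 and 14 (20.5% of all genes lower on each day), and for IFNGR1 the difference on day 14 was -1.23 ± 0.26 (edgeR adjusted p = 0.00155). With 1 library left out IFNAR2 was -1.13 on day 8 (edgeR adjusted p = 0.0808, without MYCN-high day 8 replicate C) and -0.86 on day 14 (edgeR adjusted p = 0.187, without MYCN-high day 14 replicate C), and the other 4 kept their calls. The kinase gene JAK1 was lower in MYCN-high cells at all 5 times, with -1.14 ± 0.15 (edgeR adjusted p = 9.86e-05) in untreated cells. These calls were kept without each library in turn, and with ERCC scaling the sign turned at 72 h and on day 3. The only MYCN-low library of day 14 could not be left out, for JAK1 or for the receptors.

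Among the sensing and relay genes, the double-stranded RNA receptor gene TLR3 rose after 72 h in both states, by 1.89 ± 0.32 (edgeR adjusted p = 0.000265) in MYCN-high and 1.53 ± 0.31 (edgeR adjusted p = 0.00258) in MYCN-low cells. TMEM173, which encodes STING, rose in MYCN-high cells (1.69 ± 0.40, edgeR adjusted p = 0.00414), from a level that was lower than in MYCN-low cells (-2.16 ± 0.41, edgeR adjusted p = 0.000952). MB21D1, which encodes its activator cGAS, had 15 counts in all libraries and failed the filter. The enzymes that load ISG15 rose as well in MYCN-high cells, UBA7 by 1.94 ± 0.31 (edgeR adjusted p = 0.000181) and UBE2L6 by 1.71 ± 0.20 (edgeR adjusted p = 1.14e-05); the response of UBE2L6 was larger than in MYCN-low cells by 1.16 ± 0.28 (edgeR adjusted p = 0.0177). The exonuclease gene TREX1, a negative regulator, fell in both states (-1.75 ± 0.37 and -1.16 ± 0.34). The TREX1 fall in MYCN-high cells turned with ERCC scaling. The other calls named here kept their sign with it. Without 1 library the TMEM173 rise was 1.11 (edgeR adjusted p = 0.0697, without MYCN-high 72 h replicate C), the UBE2L6 difference was 1.05 (edgeR adjusted p = 0.0689, without the same library), and the TREX1 fall in MYCN-low cells was -0.90 (edgeR adjusted p = 0.168, without MYCN-low 72 h replicate C). The remaining calls named here were kept without each library in turn.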

How the data were processed

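RNA-seq gene counts of 19 libraries (10 groups of SHEP TET21N cells) were analysed. The deposited table holds raw read counts per gene symbol, for which the submitters' processing notes name STAR 2.4.0h1, HTSeq and hg19 without their settings. Its 92 ERCC rows were left out of the tests. The labels name polyA RNA and also describe ribosomal RNA removal, and the strand setting is not given in the sources used here, so reads of overlapping or near-identical genes cannot be told apart. Groups were read from the sample titles. Of 23367 genes, 14793 passed edgeR's expression filter (minimum count 10). A single edgeR 4.0.16 quasi-likelihood fit (R 4.3.3, TMM, 1 coefficient per group, 9 residual degrees of freedom, biological coefficient of variation 0.204) gave all 17 contrasts, 5 between states, 8 against untreated and 4 of the difference in response, with Benjamini-Hochberg adjustment over all genes tested at 0.05. The SE is the absolute log2 fold change over the square root of F. The p-values measure the spread between the lettered biological replicates. Members and gene lists were chosen with earlier results of these data known. Genes given with every library's value were, per contrast and direction, up to 6 called members (4 for differences in response) of smallest p with an absolute log2 change of at least 1 and at least 1 CPM in the higher group, plus the 4 transcription factors; other genes named by value were chosen after their values were seen. Alternatives were DESeq2 1.42.0 size factors, its Wald test, no filter, blocking on the replicate letter, scaling by ERCC counts, and fits without 1 library each. The fit was tested on simulated data. Promoters came from RefSeq, GRCh38.p14.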

Additional observations from a re-analysis of the deposited data

Results flagged for a closer look

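The responses of 6 genes differed between the MYCN states by a test of the difference itself, in 2 calls at 72 h, 2 on day 3 and 3 on day 14. Those totals of 45 tested genes lay below the called shares of all genes, 10.7%, 7.58% and 7.41%. The 3 calls of day 14 were all lower, 6.67% of the members beside 2.53% of all genes. IFIT5 and EIF2AK2 were called with differences under 1 on the log2 scale: IFIT5 had -0.93 at 72 h (edgeR adjusted p = 0.0144) and -0.92 on day 3 (edgeR adjusted p = 0.016), and EIF2AK2 had -0.85 at 72 h (edgeR adjusted p = 0.0457). With ERCC scaling these 3 signs turned. The other 4 genes had differences of over 1. On day 3 the rise of GBP2, a guanylate-binding GTPase, was larger in MYCN-high cells by 1.59 on the log2 scale (SE 0.46, edgeR adjusted p = 0.0478). On day 14 the changes from untreated cells were smaller in MYCN-high cells for IFIT2 (-1.88, SE 0.44, edgeR adjusted p = 0.0204), SAMD9L (-1.48, SE 0.37, edgeR adjusted p = 0.0261) and TRIM22 (-2.38, SE 0.67, edgeR adjusted p = 0.0434). All 6 lost each call without at least 1 library, and the day 14 values rest on 1 MYCN-low library.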

How the results depend on the processing

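Depth limited the 4 genes under 1 CPM, and the single MYCN-low library of day 14, which could not be left out, limited every value that used it. The number of called members stayed within 1.5 times under DESeq2 size factors, DESeq2's Wald test, no filter and the replicate block, apart from the following. With DESeq2 size factors the differences in response had 1 call on day 3, 1 on day 8 and 6 on day 14. The Wald test called 11 on day 8 in MYCN-high cells, and 4, 4, 4 and 7 differences in response at 72 h, day 3, day 8 and day 14. Without a filter 11 were called on day 8 and 1 on day 14 in MYCN-high cells, and 5, 7, 7 and 8 differences in response. With the replicate block 2 differences were called on day 8. Same-lettered samples share only a letter: over 36 group pairs the correlation of the B minus C differences had a median of 0.108 (range -0.208 to 0.315, 22 above 0.1). GBP2 on day 3 lost its difference in response with DESeq2 size factors (1.54, edgeR adjusted p = 0.0511), and STAT2 lost its day 8 rise in MYCN-low cells with the block (0.57, edgeR adjusted p = 0.0506); the block ended no other call named by rule.

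ERCC scaling left 1 call at 72 h in MYCN-high cells and 0 in every other comparison. It turned the state difference at 72 h for STAT2 (0.84), GBP1 (0.78), IRF9 (1.14), SAMD9L (1.56), IFIT1 (1.14) and DDX60 (1.57). On day 3 it turned STAT2 (0.29), IRF9 (0.11), GBP1 (0.28), SAMD9L (0.12), IFIT1 (0.19) and IFI6 (0.47), and at 72 h in MYCN-high cells it turned USP18 (1.30). ERCC scaling moved the median of all genes by up to 2.51, and the other settings moved it by at most 0.056. The cause was not tested.

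Leaving out single libraries gave state counts of 14 to 20 (untreated), 12 to 17 (72 h), 12 to 14 (day 3), 18 to 22 (day 8) and 19 to 23 (day 14). Against untreated cells, MYCN-high counts were 14 to 18, 12 to 13, 1 to 4 and 0 to 0, and MYCN-low counts 5 to 18, 4 to 14, 8 to 22 and 11 to 20, at the same times. Differences in response numbered 0 to 12, 0 to 10, 0 to 7 and 0 to 14.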
